A study of Mus musculus with 8 samples.

Results

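The serpins are a superfamily of protease inhibitors, and the genes described here are those whose symbol starts with Serpin and that a probe set of the array names alone. By that rule 56 of 45101 probe sets were members, and they stood for 40 of the 18193 genes named alone by a probe set. They fell into 8 clades by the letter after Serpin: 14 genes in clade A, 18 in clade B, 2 in clade F, 2 in clade I, and 1 each in clades C, D, G and H. The arrays measured RNA of lymphatic endothelial cells, the lining of the vessels that carry lymph out of tissue, sorted from the ear skin of female FVB mice as CD45-CD31+podoplanin+ cells. Inflamed samples were taken from mice that had been sensitised to the contact allergen oxazolone (2%) and challenged 5 days later with 1% oxazolone on both sides of the ears, which were collected 24 hours later. Untreated samples were taken from mice that received no oxazolone, and the labels name no application of the acetone and olive oil alone. Each group held 4 samples, each pooled from the ears of 3 mice aged 8 to 10 weeks, and 1 inflamed and 1 untreated sample were sorted and extracted together on each of 4 days. The comparison asks how inhibitor transcripts of lymphatic endothelium differ in inflamed and in resting skin.

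An inhibitory serpin exposes a reactive loop that a protease cuts as if it were a substrate. The cut makes the serpin change shape and trap the enzyme in a dead covalent complex, so each inhibitor molecule is used once. Some serpins inhibit no protease and serve as chaperones, hormone carriers or signals. Secreted serpins restrain complement, clotting, fibrinolysis and leukocyte proteases in plasma and tissue fluid, while clade B serpins mostly stay inside the cell.

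Values are MAS5 signals, an array intensity on a linear scale. Arrays had mean signals of 126.2 to 160.4. A background ceiling was set per array at signals of 5.79 to 9.94, and 53.5% to 62.6% of probe sets lay above it. It came from bacterial control probe sets taken as not spiked into the hybridisation mix. Whether RNA for them was added before labelling was not checked. The lymphatic genes Lyve1, Prox1, Flt4, Pdpn, Mmrn1, Reln and Pecam1 were above the ceiling on all 8 arrays. Their summed signal was 11898 to 21561 on inflamed arrays and 20736 to 27389 on untreated arrays, lower in the inflamed sample of all 4 pairs. Pdpn alone went the other way on average, higher in the inflamed sample of all 4 pairs. Its mean log2 difference was 0.56, which did not pass the test used below (limma, adjusted p = 0.0605). The log2 ratio of the 3' to the 5' control probe sets of Gapdh averaged 3.06 on inflamed arrays and 3.85 on untreated arrays and was lower in the inflamed sample of 4 of 4 pairs, whereas that of Actb averaged -0.07 on inflamed arrays and -0.08 on untreated arrays.

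Of the 40 serpin genes, 11 passed the filter on low signal (a mean log2 signal of at least 3.30, a signal of 9.84) and were tested with limma among 10843 genes. Transcripts of 2 of these 11 were higher in inflamed samples and 0 were lower at an adjusted p under 0.05. Among all genes tested, 6.94% were called, 3.91% as higher and 3.02% as lower. The 2 genes were Serping1 and Serpina3n, both secreted inhibitors. The change, the log2 signal of inflamed minus untreated samples, was positive for 8 of the 11 tested serpins, with a median of 0.66, against a median of -0.09 over all tested genes, of which 46.2% were positive. An unadjusted p under 0.05 was reached by 5 of the 11 serpins, against 22.0% of all tested genes. In 2 of the 11, inflamed and untreated signals did not overlap, against 13.1% of all tested genes. A gene passes the filter more easily if 1 group is bright, so these shares describe the genes that passed and not the 40.

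Clade G has a single gene, Serping1, which encodes C1 inhibitor, the serpin that blocks the complement proteases C1r and C1s, plasma kallikrein and the activated contact factor of clotting. Its signal was 1736, 1456, 1791 and 2046 on inflamed arrays 1 to 4, against 304, 307, 142 and 244 on untreated arrays 1 to 4. Every inflamed array lay above every untreated array, and the pair differences ran from 2.24 to 3.65 on the log2 scale. Serping1 rose by 2.87 ± 0.31 (moderated SE, n = 4 pairs) in inflamed samples, which is 7.31-fold with a 95% interval of 4.54-fold to 11.8-fold (limma, adjusted p = 0.00114). The untreated spread came mostly from array 3, the lowest of the group, and the 4 inflamed arrays lay closer together.

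In clade A, Serpina3n was higher in inflamed samples. It belongs to a cluster of mouse genes related to human antichymotrypsin and encodes a secreted inhibitor of leukocyte elastase and granzyme B. Its signal was 2742, 2927, 3019 and 3562 on inflamed arrays, against 656, 1346, 522 and 935 on untreated arrays. The groups did not overlap, and the untreated arrays were the more variable. Serpina3n rose by 1.91 ± 0.23 (moderated SE, n = 4 pairs), a 3.76-fold difference with a 95% interval of 2.61-fold to 5.42-fold (limma, adjusted p = 0.00192). Without the intensity trend in the fit its adjusted p was 0.094, so this call rests on that setting.

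Serpina3i, another gene of the same cluster, was the only other tested member of clade A. Its signal was 18.9, 59.9, 57.3 and 12.7 on inflamed arrays, against 1.05, 10.7, 17.1 and 16.9 on untreated arrays. Inflamed arrays 2 and 3 were high, untreated array 1 was at background, and the groups overlapped. The change was 2.00 ± 0.90 with a 95% interval of -0.03 to 4.03, and it did not pass the test (limma, adjusted p = 0.235). With 1 pair left out the change ran from 1.28 without pair 1 to 2.80 without pair 4. Genes of this cluster are near copies of one another, so probe sets may bind transcripts of several, and Serpina3n and Serpina3i values are uncertain to that extent.

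The promoters of these cluster neighbours are shown side by side. Serpina3n passed the threshold and Serpina3i did not, but their changes were alike in size (1.91 ± 0.23 and 2.00 ± 0.90). That of Serpina3i was less precise, so no difference in change between the genes was shown. The windows are the 250 bases before the RefSeq start site (GRCm38.p6), and capitals mark matches to motif letters. Serpina3n lies at chr12:104406458-104406707 on the + strand and Serpina3i at chr12:104262872-104263121 on the + strand.
Serpina3n promoter: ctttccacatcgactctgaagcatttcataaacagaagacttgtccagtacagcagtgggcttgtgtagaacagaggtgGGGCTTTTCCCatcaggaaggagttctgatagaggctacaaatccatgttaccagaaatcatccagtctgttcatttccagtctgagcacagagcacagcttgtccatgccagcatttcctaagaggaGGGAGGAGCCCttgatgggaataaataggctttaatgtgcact
Serpina3i promoter: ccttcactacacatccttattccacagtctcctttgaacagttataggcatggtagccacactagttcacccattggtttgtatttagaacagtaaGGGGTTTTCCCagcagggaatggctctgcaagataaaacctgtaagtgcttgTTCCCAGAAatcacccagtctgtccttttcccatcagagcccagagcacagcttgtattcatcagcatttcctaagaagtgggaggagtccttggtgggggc
The windows were 51.5% identical over the 229 bases compared without gaps, at the single best shift of 21 bases. Stretches that match at another shift are not counted, so this value can understate how alike the windows are. Both hold the NF-kB letters (GGG, any 5 bases, CC), overlapping on both strands, starting 171 and 43 bases before the start site in Serpina3n and 154 in Serpina3i. These letters occur in 45.8% of all 32851 mouse promoter windows. The interferon-type GAS letters TTCNNNGAA stand 102 bases before the start of Serpina3i and occur in 7.02% of all windows. A match is a run of letters and not a measured binding site.

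The other 12 clade A genes did not reach the filter. They were Serpina1b, Serpina1c and Serpina1f of the alpha-antitrypsin cluster, Serpina3a, Serpina4-ps1 (a pseudogene), Serpina5 (protein C inhibitor), Serpina6 (the plasma carrier of corticosteroids), Serpina7 (the carrier of thyroxine), Serpina9, Serpina10 (the inhibitor that acts with protein Z), Serpina11 and Serpina12. Their signals ranged from 0.618 to 24.0 over all arrays, and 5 of the 14 clade A genes were above the ceiling on no array. On the probe set used for each gene, fitted changes lay between -1.03 and 1.32. With every gene in the fit the smallest adjusted p among them was 0.361 (limma). A second probe set of Serpina12 had a change of -1.51 in the fit of all probe sets (limma, adjusted p = 0.507). Most of these genes are known as liver products, and their levels here were at or near background in both groups.

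**Figure D1:**
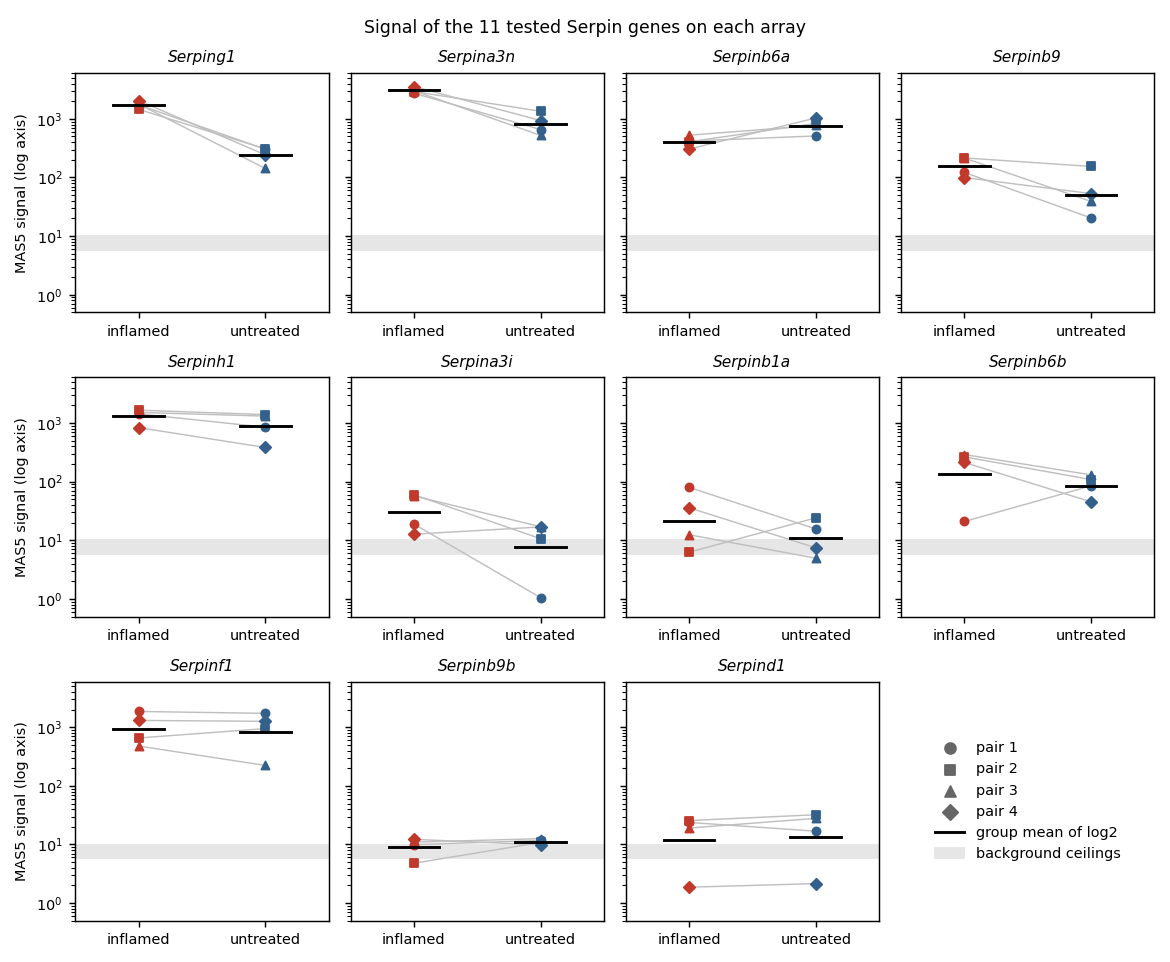
MAS5 signal (log axis) of the 11 tested serpin genes on each array, inflamed left and untreated right, with lines joining the 2 samples of a pair, black bars at the group means of log2 signal and a grey band for the range of background ceilings. Serping1 and Serpina3n separate the groups (Serping1 at 1456 to 2046 inflamed and 142 to 307 untreated, Serpina3n at 2742 to 3562 inflamed and 522 to 1346 untreated), while in the other 9 the groups overlap.

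Clade B, the intracellular serpins, had the most members, and none of its 5 tested genes passed the test. Serpinb6a, whose human counterpart inhibits cathepsin G, gave 418, 407, 526 and 305 on inflamed arrays, against 511, 834, 772 and 1036 on untreated arrays. The inflamed sample was the lower in all 4 pairs, but the highest inflamed array exceeded the lowest untreated array. The change was -0.91 ± 0.32 with a 95% interval of -1.64 to -0.19 (limma, adjusted p = 0.134). Serpinb6b, a neighbouring relative, gave 20.9, 265, 290.1 and 213 on inflamed arrays, against 84.9, 109, 131 and 45.3 on untreated arrays. Inflamed array 1 was far below the other 3 inflamed arrays and below every untreated array, and the change was 0.66 ± 0.71 (limma, adjusted p = 0.648). With 1 pair left out it ran from 0.14 without pair 4 to 1.56 without pair 1, and it passed in none of these fits.

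Serpinb9 encodes the cytosolic inhibitor of granzyme B that shields cells from their own or a killer cell's granzyme. Its brighter probe set gave 122, 216, 214 and 99.6 on inflamed arrays, against 20.4, 154, 39.0 and 53.1 on untreated arrays. The inflamed sample was higher in all 4 pairs, and untreated array 2 overlapped the inflamed range. The change was 1.61 ± 0.60 with a 95% interval of 0.27 to 2.95, which missed the threshold (limma, adjusted p = 0.149). A second probe set gave 38.1, 108, 288 and 48.8 on inflamed arrays, against 7.58, 14.7, 26.4 and 55.6 on untreated arrays. It was higher in 3 of 4 pairs, with a change of 2.12 ± 0.78 in the fit of all 45037 probe sets (limma, adjusted p = 0.228).

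The promoters of Serpinb9 and Serpinb6a are shown because both windows hold the ISRE letters (GAAA, any 2 bases, GAAA). These letters occur in 2.98% of all windows and in 2 of the 34 member genes with a window. The changes of Serpinb9 and Serpinb6a pointed in opposite directions, but neither passed the test. Capitals mark motif matches. Serpinb9 lies at chr13:33004291-33004540 on the + strand, and the Serpinb6a window with matches lies at chr13:34002795-34003044 on the - strand.
Serpinb9 promoter: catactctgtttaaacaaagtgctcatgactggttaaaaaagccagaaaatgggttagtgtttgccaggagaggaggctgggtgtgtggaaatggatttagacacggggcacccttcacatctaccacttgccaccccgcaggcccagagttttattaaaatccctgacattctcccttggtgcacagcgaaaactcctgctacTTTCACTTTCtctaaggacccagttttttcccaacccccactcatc
Serpinb6a promoter: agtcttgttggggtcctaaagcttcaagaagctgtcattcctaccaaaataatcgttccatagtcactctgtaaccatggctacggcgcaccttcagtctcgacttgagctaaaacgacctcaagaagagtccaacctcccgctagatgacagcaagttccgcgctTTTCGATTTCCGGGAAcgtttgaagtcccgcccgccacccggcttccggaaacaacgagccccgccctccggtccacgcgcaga
In Serpinb9 the match starts 46 bases before the start site. In Serpinb6a it starts 84 bases before it and overlaps a GAS match that starts 77 bases before it. Serpinb6a has a second RefSeq window with none of the 6 motifs searched. In both genes the ISRE letters lie on the opposite strand of the window as printed, so they read TTTC, 2 bases, TTTC.

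Serpinb1a, an inhibitor of neutrophil elastase, cathepsin G and proteinase-type enzymes, gave different patterns on its 2 probe sets. The brighter one gave 79.9, 6.26, 12.4 and 35.8 on inflamed arrays, against 15.6, 24.1, 4.95 and 7.45 on untreated arrays, with a change of 1.00 ± 0.92 (limma, adjusted p = 0.585) that ran from 0.55 without pair 1 to 1.98 without pair 2. The other gave 5.88, 46.7, 54.1 and 4.70 on inflamed arrays, against 6.31, 3.37, 0.689 and 4.57 on untreated arrays. The inflamed arrays that were high on one probe set were low on the other, and neither probe set separated the groups. Serpinb9b, the dimmest tested member, gave 9.95, 4.79, 10.97 and 12.2 on inflamed arrays, against 11.7, 10.8, 12.6 and 9.91 on untreated arrays, all close to the ceiling. Its change was -0.33 ± 0.78 (limma, adjusted p = 0.861).

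The remaining 13 clade B genes were below the filter, with signals from 0.559 to 31.6 on the probe set used for each gene, and 7 of the 18 clade B genes were above the ceiling on no array. Fitted changes on these probe sets ran from -0.71 to 1.83, and the smallest adjusted p was 0.180 with every gene in the fit (limma). The genes were Serpinb1b, Serpinb2 (a urokinase inhibitor), Serpinb3a, Serpinb5, Serpinb6c, Serpinb6e, Serpinb7, Serpinb8, Serpinb9c, Serpinb9d, Serpinb9g, Serpinb11 and Serpinb12. Further probe sets fell below that range, with changes of -2.20 for Serpinb8, -1.24 for Serpinb9c, -1.17 for Serpinb5 and -1.09 for Serpinb12. In the fit of all probe sets the smallest adjusted p of these was 0.205, for Serpinb8 (limma). That Serpinb8 probe set was above the ceiling on 1 untreated array and 0 inflamed arrays. Serpinb5 (maspin), an epithelial serpin, has 4 probe sets, and their summed signal was 5.26, 777.5, 7.75 and 16.4 on inflamed arrays, against 27.2, 9.73, 471 and 16.6 on untreated arrays. Only inflamed array 2 and untreated array 3 were high, and these were the arrays with the highest summed signal of 11 keratinocyte markers in their group. Those sums were 527, 1401, 218 and 219 on inflamed arrays, against 2412, 1049, 4121 and 2080 on untreated arrays. The part of keratinocyte RNA in the Serpinb5 values was not tested.

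Clade H holds Serpinh1, known as Hsp47, which inhibits no protease and is the chaperone of procollagen in the endoplasmic reticulum. Its brighter probe set gave 1434, 1658, 1519 and 836 on inflamed arrays, against 849.9, 1393, 1313 and 383 on untreated arrays. The inflamed sample was higher in all 4 pairs, the groups overlapped, and pair 4 was the lowest in both. The change was 0.59 ± 0.23 with a 95% interval of 0.06 to 1.11 (limma, adjusted p = 0.179). The second probe set gave 1462, 449, 629 and 994 on inflamed arrays, against 448, 361, 334 and 245 on untreated arrays. There the groups did not overlap, although inflamed array 2 (449) lay next to untreated array 1 (448), and the change was 1.24 ± 0.34 in the fit of all probe sets (limma, adjusted p = 0.0922).

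In clade F, Serpinf1 encodes pigment epithelium-derived factor, a secreted serpin that inhibits no protease and is known for restraining blood vessel growth. Its signal was 1859.7, 656, 479 and 1308 on inflamed arrays, against 1725, 948, 223 and 1261 on untreated arrays. The order of the pairs was alike in both groups, with pair 1 highest and pair 3 lowest. The change was 0.18 ± 0.29 with a 95% interval of -0.47 to 0.84, so no difference was called (limma, adjusted p = 0.770), and its sign turned to -0.12 without pair 3. The second probe set gave 149, 35.0, 71.5 and 83.4 on inflamed arrays, against 61.0, 56.2, 19.2 and 43.6 on untreated arrays (change 0.86 ± 0.68). Serpinf2, the inhibitor of plasmin, stayed below the filter at 1.22 to 31.7 over all arrays.

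**Figure D2:**
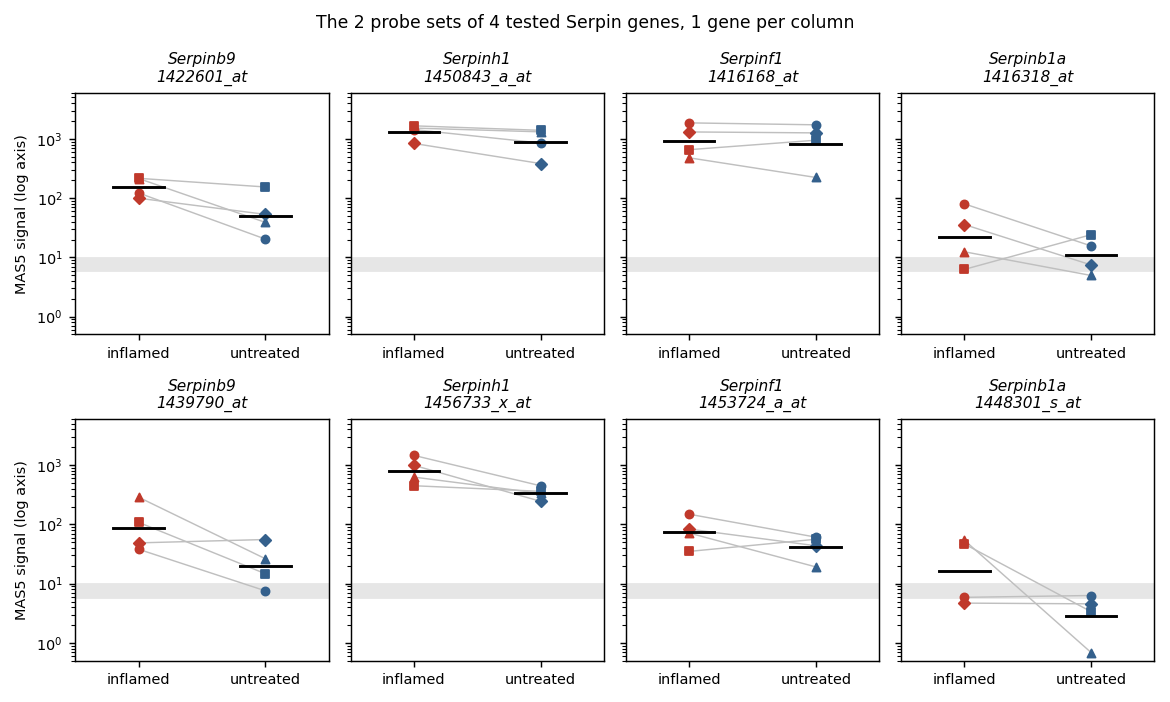
MAS5 signal (log axis) per array for both probe sets of Serpinb9, Serpinh1, Serpinf1 and Serpinb1a, inflamed left and untreated right. The second Serpinh1 probe set separates the groups (449 to 1462 inflamed, 245 to 448 untreated), the first does not (836 to 1658 inflamed, 383 to 1393 untreated), and the Serpinb1a probe sets are high on different inflamed arrays.

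No serpin known mainly for clotting passed the test. Serpind1, heparin cofactor and inhibitor of thrombin, gave 23.8, 25.6, 19.1 and 1.87 on inflamed arrays, against 16.9, 32.1, 27.9 and 2.15 on untreated arrays. Pair 4 was at background in both groups, and the change was -0.15 ± 0.75 (limma, adjusted p = 0.941). Its sign was positive after median centring (0.16) and after quantile normalisation (0.06). Serpinc1, antithrombin, was below the filter at 1.95, 14.0, 3.77 and 3.39 on inflamed arrays, against 3.33, 7.29, 0.961 and 20.1 on untreated arrays. In clade I, Serpini1 (neuroserpin, an inhibitor of tissue plasminogen activator) and Serpini2 were below the filter. Serpini2 gave 6.26, 2.46, 6.89 and 6.58 on inflamed arrays, against 0.710, 1.06, 1.87 and 0.729 on untreated arrays, every value under its array's ceiling, so no fold is given. With every gene in the fit its adjusted p was 0.0884 (limma), the smallest among the 29 untested serpins.

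**Figure D3:**
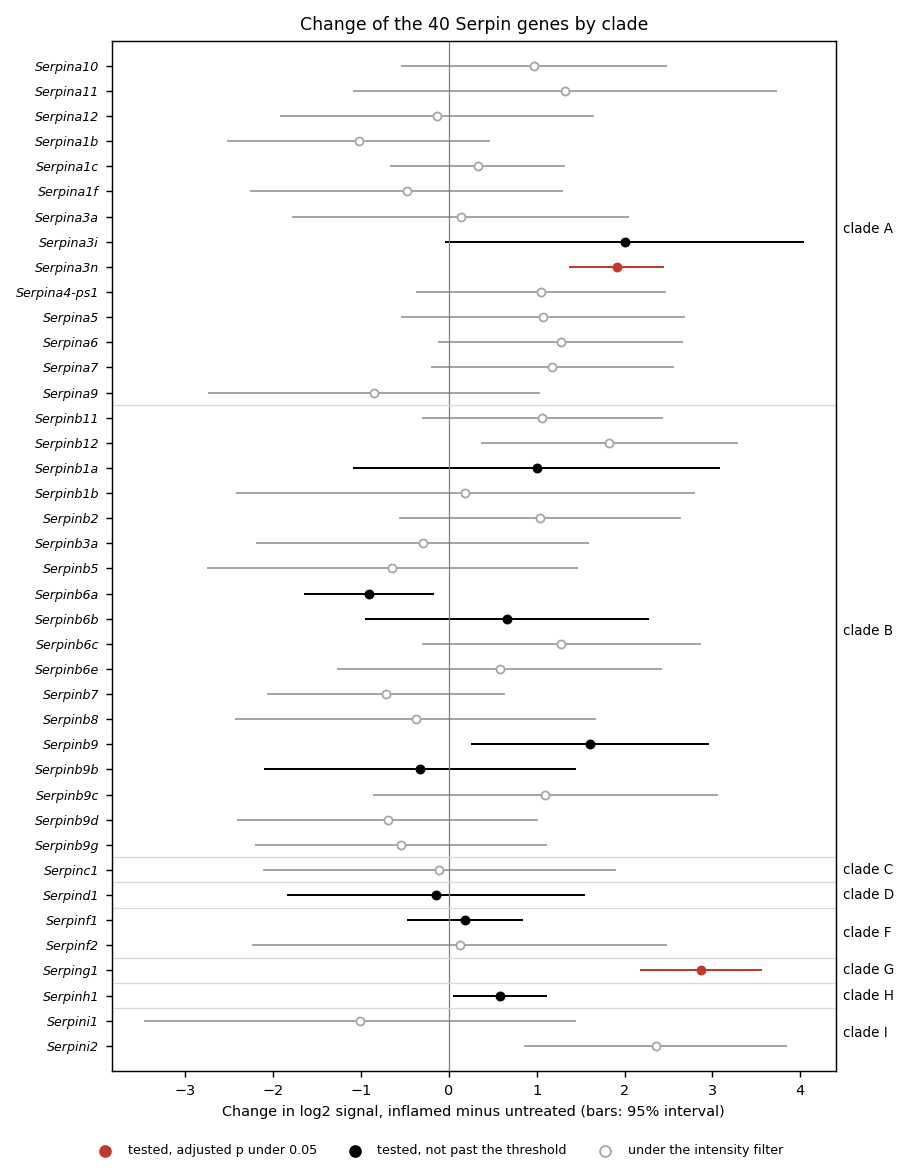
Change in log2 signal (inflamed minus untreated) with its 95% interval for the 40 serpin genes, ordered by clade, with the tested and called genes marked. Serping1 (2.87) and Serpina3n (1.91) are the 2 called genes, and the intervals of most others cross 0.

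The proteases that serpins inhibit were described from a list of 39 serine proteases, of which 14 were tested, 3 were higher in inflamed samples and 0 were lower, with a median change of 1.25. Over all tested genes 3.91% were higher and 3.02% lower, with a median change of -0.09, and this background also holds for the 4 lists below. Calls in this list and the 4 lists below depended on the intensity trend of the fit: without it 1 gene of the 5 lists was higher and 3 were lower, against 14 and 7 with it. Plau, urokinase, gave 1625, 2807, 2406 and 1983 on inflamed arrays, against 678, 808, 686 and 571 on untreated arrays, and rose by 1.67 ± 0.20 (limma, adjusted p = 0.00173). C1s1, a target of C1 inhibitor, gave 1638, 318, 364 and 854 on inflamed arrays, against 199, 168, 25.0 and 38.0 on untreated arrays. It rose by 3.08 ± 0.59 (limma, adjusted p = 0.0146), and C1ra, the companion protease, by 2.62 ± 0.62 (limma, adjusted p = 0.0369), with no overlap of groups in either. Both complement calls were lost on leaving out single pairs. The adjusted p of C1s1 was 0.0775 without pair 1 and 0.0815 without pair 3, and that of C1ra was 0.0873 to 0.137 with any 1 pair left out (limma). Masp1, of the lectin pathway, was higher in 4 of 4 pairs and did not pass (2.63 ± 0.85, limma, adjusted p = 0.107). Only 1 protease of this list was higher without pair 1 and 1 without pair 3. The leukocyte protease Gzmb, the granzyme B that Serpinb9 and Serpina3n block, was below the filter at 1.75, 6.56, 57.6 and 13.2 on inflamed arrays, against 0.904, 1.38, 1.32 and 1.15 on untreated arrays.

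Among 11 cysteine proteases, which some serpins also inhibit, 9 were tested, 1 was higher and 0 were lower, with a median change of -0.14 (-0.09 over all tested genes, 3.91% of them higher). The gene was Ctss, an endosomal protease of antigen presentation, at 289, 929, 346 and 1734 on inflamed arrays, against 0.920, 143, 130.1 and 3.53 on untreated arrays. Untreated arrays 1 and 4 were under the ceiling. It rose by 5.34 ± 1.20 (limma, adjusted p = 0.0301), and its adjusted p was 0.128 without pair 1 and 0.0822 without pair 4. The next by p were Ctso (-1.73 ± 0.53, limma, adjusted p = 0.0916), Ctsb and Lgmn. With the mean of all probe sets of each gene, Ctso was called lower at the same change (limma, adjusted p = 0.0427).

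Inhibitors of other families went in both directions. Of 40 listed, 36 were on the array and 23 were tested, with 3 higher, 6 lower and a median change of -0.35 (-0.09 over all tested genes, 3.91% higher and 3.02% lower). Timp1, a secreted inhibitor of matrix metalloproteinases, gave 2144, 742, 558 and 1364 on inflamed arrays, against 2.72, 1.69, 1.15 and 1.19 on untreated arrays. Every untreated value was under the ceiling, so Timp1 was at least 134.5-fold higher in inflamed samples, measured against the mean ceiling (limma, adjusted p = 0.000115). Timp4 fell by 4.02 ± 0.65 (limma, adjusted p = 0.00741) and Itih5, a hyaluronan-binding heavy chain of the inter-alpha-inhibitor family, by 3.74 ± 0.53 (limma, adjusted p = 0.00438). On inflamed arrays Timp4 was above the ceiling on 2 of 4 and Itih5 on 3 of 4. Itih2 of the same family gave 1.37, 1.35, 1.82 and 9.64 on inflamed arrays, against 83.1, 103, 51.3 and 62.9 on untreated arrays. Only 1 of the 4 inflamed arrays was above the ceiling, so no fold is given. It was called lower (limma, adjusted p = 0.0104), with an adjusted p of 0.0553 without pair 1 and 0.0573 without pair 3, and its log2 difference ranged from -5.67 without pair 4 to -2.21 with a signal of 16 added. The lower count was 3 without pair 3, and the higher count was 1 without pair 1.

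Cofactors and clearance receptors of serpins were a list of 18 genes, 17 on the array and 15 tested, with 3 higher and 0 lower and a median change of 0.07 (-0.09 over all tested genes, 3.91% of them higher). Sdc4, a heparan sulfate proteoglycan of the kind that binds heparin-dependent serpins, gave 5331, 2612, 2158 and 4257 on inflamed arrays, against 1744, 985, 424 and 967 on untreated arrays. The groups did not overlap, and Sdc4 rose by 1.88 ± 0.20 (limma, adjusted p = 0.00114). Plaur, the urokinase receptor, rose by 2.47 ± 0.52 (limma, adjusted p = 0.0224) and Thbd, thrombomodulin, by 1.13 ± 0.20 (limma, adjusted p = 0.0112). The adjusted p of Plaur was 0.0834 without pair 2, 0.0750 without pair 3 and 0.0727 without pair 4, and that of Thbd was 0.0693 without pair 3, where 1 gene of the list was higher. Lrp1, an endocytic receptor that clears serpin-protease complexes, did not pass (0.97 ± 0.35, limma, adjusted p = 0.142). With the mean of all its probe sets in place of the brightest, its change was 2.39 and it passed (limma, adjusted p = 0.0260).

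Serpinh1 was read beside 26 measured genes of procollagen and its folding, 25 of them tested, with 4 higher, 1 lower and a median change of 0.48 (-0.09 over all tested genes, 3.91% higher and 3.02% lower). Col4a1, a basement membrane collagen chain, gave 3342, 6116, 5221 and 6057 on inflamed arrays, against 900.4, 2626, 2475 and 1998 on untreated arrays, and rose by 1.45 ± 0.16 (limma, adjusted p = 0.00122). Hspa5, the main chaperone of the endoplasmic reticulum, rose by 1.24 ± 0.22 (limma, adjusted p = 0.0104), Col6a1 by 1.82 ± 0.32 (limma, adjusted p = 0.0105) and Col6a2 by 1.98 ± 0.35 (limma, adjusted p = 0.0112). Hspa5 had an adjusted p of 0.0558 without pair 1 and 0.0634 without pair 3, Col6a2 had 0.0600 without pair 3, and 2 genes of the list were higher without pair 3. Without the pair as a block, Col6a1 (limma, adjusted p = 0.225) and Col6a2 (limma, adjusted p = 0.0685) did not pass, and with the pair as a random block Col6a1 did not pass either (limma, adjusted p = 0.160). The gene called lower was Col18a1, and it was not called without pair 1, 3 or 4.

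**Figure D4:**
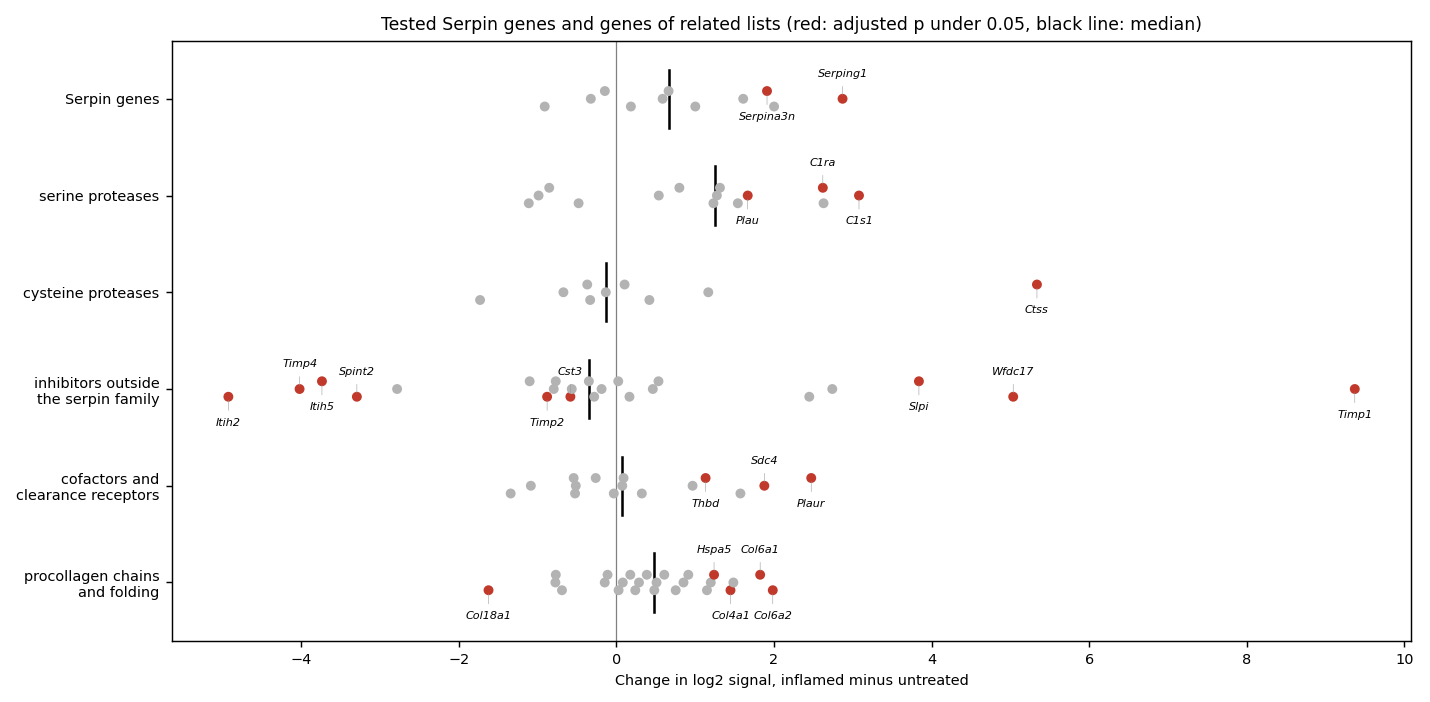
Change in log2 signal (inflamed minus untreated) of the tested genes of each related list, with called genes in red and the list median as a black line. The list medians run from -0.35 (other protease inhibitors) to 1.25 (serine proteases).

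Serpins are also made by other skin cells, and markers of such cells moved between the groups. Summed signals of 10 fibroblast markers were 24537, 13754, 10537 and 16522 on inflamed arrays, against 20272, 11872, 4430 and 15370 on untreated arrays, higher in the inflamed sample of all 4 pairs. Untreated array 3 was lowest of its group for this sum and for Serpinf1, Serping1 and Serpina3n. That array was also lowest of its group for the chondrocyte (1967), pericyte and smooth muscle (217), neutrophil (41.6) and mast cell (37.3) sums. On inflamed arrays, Serpinf1 and the fibroblast sum were lowest on array 3, and Serping1 was lowest on array 2. Serpina3n was lowest on inflamed array 1, where the fibroblast sum was highest (24537). Neutrophil markers, 12 of 14 listed, summed to 787 to 1731 on inflamed arrays and 41.6 to 79.6 on untreated arrays, higher in 4 of 4 pairs, and Ltf was above the ceiling on no array. S100a8 and S100a9 carried most of the inflamed sums, at 219 to 478 and 391.8 to 1099 on inflamed arrays, against 1.17 to 6.97 and 0.981 to 9.85 on untreated arrays, and they were the only 2 of the 12 to pass the filter. Ngp, Mmp8 and Mpo were near the ceiling or under it on most arrays of both groups, with changes of 0.02, -0.53 and 0.84. Camp was above it on 3 inflamed arrays and 1 untreated array (change 0.76). Stfa2l1, Cxcr2 and Csf3r, under the filter, had changes of 3.18, 2.74 and 1.97. They were above the ceiling on 2, 3 and 2 inflamed arrays and on 0 untreated arrays, though Csf3r was higher in only 2 of 4 pairs. Of the 12 markers, only Mmp8 had a negative change. The 12 monocyte and macrophage markers summed to 729 to 1977 on inflamed arrays and 494 to 1142 on untreated arrays. Keratinocyte markers were lower in the inflamed sample of 4 of 4 pairs by mean log2 signal. With 4 pairs the smallest exact two-sided permutation p is 0.125, which these comparisons of mean log2 signal reached. The part of these cells in the values of Serping1, Serpina3n and Serpinh1 was not tested, and in sorted bulk samples fewer cells of a type and less RNA per cell cannot be told apart.

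Of the other lists, mast cell markers summed to 182 to 356 on inflamed arrays and 37.3 to 99.6 on untreated arrays. Hdc made up most of the inflamed sums, at 299, 116, 189 and 222 on inflamed arrays, against 1.08, 2.72, 10.6 and 2.07 on untreated arrays. Cpa3, Kit, Fcer1a and Mcpt4 had changes of -1.33, -1.48, -0.83 and -0.79, and Cma1, Tpsb2 and Ms4a2 of 0.88, 0.54 and 0.54. By mean log2 signal the mast cell list was higher in 3 of 4 pairs (exact permutation p = 0.375). T and NK cell markers summed to 113 to 216 on inflamed arrays and 80.3 to 220.3 on untreated arrays. Platelet markers summed to 65.9 to 185 on inflamed arrays and 59.98 to 335 on untreated arrays, pericyte and smooth muscle markers to 503 to 1106 on inflamed arrays and 217 to 2218 on untreated arrays. Chondrocyte markers summed to 1327 to 7326 on inflamed arrays and 1967 to 7780.0 on untreated arrays, and blood endothelial markers to 2223 to 4356 on inflamed arrays and 3120.1 to 5628 on untreated arrays. By mean log2 signal the blood endothelial list went the other way, higher in the inflamed sample of 4 of 4 pairs by 0.41 (exact permutation p = 0.125). Ranges of the summed signal overlapped between the groups in each of these lists except mast cells, where Hdc separated them.

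**Figure D5:**
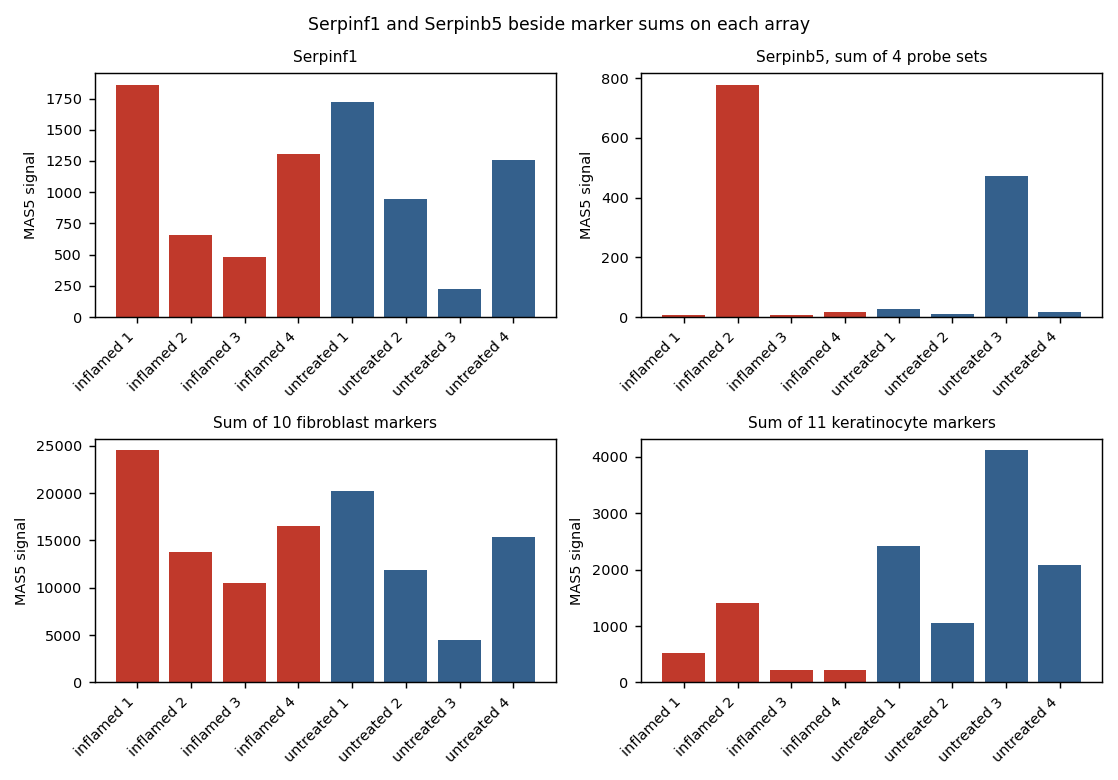
Signal (linear axis) by array of Serpinf1, the sum of the Serpinb5 probe sets, the summed fibroblast markers and the summed keratinocyte markers, inflamed arrays left and untreated arrays right. Serpinb5 is high on inflamed array 2 (777.5) and untreated array 3 (471), and Serpinf1 is lowest on untreated array 3 (223), where the fibroblast sum is also lowest (4430).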

How the data were processed

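RNA of sorted lymphatic endothelial cells was amplified linearly, labelled with biotin and hybridised to 8 single-colour arrays, per the labels' protocols. The deposited table holds 1 intensity per probe set and array, a linear MAS5 signal per the submitters' processing notes, with scaling and version not given in the sources used here. Since medians of the log2 signal lay within 0.468 of each other, the authors' scaling was kept, and log2 was taken with nothing added. Of the 45101 probe sets, 64 were controls, and of the other 45037, 34945 named 1 gene in the platform annotation, 932 several and 9160 none. Of the 932, 3 named only Serpin genes and were left out by the rule.

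Probe sets whose mean log2 signal was below the median over all probe sets (3.30) were left out and the brightest probe set stood for each gene, which left 10843 genes. Genes were fitted with limma 3.58.1 in R 4.3.3 (lmFit, eBayes with an intensity trend) and the pair as fixed block. Tests were two-sided, and p was adjusted by Benjamini-Hochberg over all genes and called under 0.05. Intervals are 95% and moderated, with 3 residual and a median of 6.27 prior degrees of freedom. The same fit on all 45037 probe sets or 18193 genes without the filter covered the other members. Samples are pools of 3 mice, so p-values concern pools rather than animals, and the number of arrays limits the precision. The background ceiling is the 95th percentile of 27 bacterial control probe sets per array. Marker lists were compared by exact two-sided sign-flip permutation over 4 pairs.

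The pairing is that of the series' design text: both samples of a pair were sorted and extracted on the same day. Deviations from group means had within-pair correlations of 0.16, 0.00, 0.08 and 0.03 (pairs 1 to 4) across genes, which are not independent. No 2 arrays held identical values. Every serpin gene past the filter is named, the others by clade, and of each related list up to 4 members with the smallest p. The members and lists were chosen with earlier results of these data known. Promoter windows are from RefSeq (GRCm38.p6) and matched 34 of the 40 members. Motifs searched on both strands were those given with the promoters and, beside them, AP-1 (letters TGANTCA), the heat shock element (letters GAANNTTC) and the TATA box (letters TATAAA). Alternatives were no block, a random block, other scaling, filters, trend, probe set rules, an added signal of 16 and leaving out each pair. On simulated data of 10843 genes with 200 changed, the fit recovered 2% of changes of 1 on the log2 scale, 28% of 2, 64% of 3 and 80% of 4. It also called 10 of the 10643 unchanged genes. The real data gave 752 calls, so recovery there may differ from that simulated with 200 changed genes.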

Additional observations from a re-analysis of the deposited data

Results flagged for a closer look

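In 4 groups of 4 arrays the gap of the highest or lowest array to its nearest neighbour, divided by the range of the group on the log2 scale, exceeded Dixon's 95% critical value. Chance gives about 1 such gap in 20 groups, and no explanation was tested. The number of groups searched is not stated, so the 4 cannot be set against that share. The ratio was 0.882 for Serpinb6b in inflamed samples, where array 1 was low (20.9). It was 0.887 for Serpind1 in inflamed samples, where array 4 was low (1.87). It was 0.831 for Serpina3i in untreated samples, where array 1 was low (1.05). It was 0.925 for the mean log2 signal of the monocyte and macrophage markers in inflamed samples, where array 4 was high (a summed signal of 1977).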

How the results depend on the processing

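Serping1 was called in 14 of 14 alternatives, with a change of 2.61 to 3.17 and an adjusted p of 0.000108 to 0.0445 (limma). Serpina3n was called in 13 of 14, with a change of 1.70 to 2.21, and missed the threshold without the intensity trend (adjusted p = 0.094), where 1 serpin was higher. In every alternative 0 serpins were lower. Without the replicate block, as with a random block, 2 serpins were higher and 0 lower; leaving out each pair in turn gave 2 and 0. Over all genes, 424 were higher and 328 lower; these were 94 and 47 without the trend, 194 and 103 without pair 3, and 719 and 227 after median centring, which moved the median change to 0.22. Of the 5 related lists together, 14 genes were higher and 7 lower. Without the trend 1 was higher and 3 lower, and without probe sets of suffix _x_at, _s_at or _a_at 4 were lower. With 1 pair left out the counts ran from 7 to 12 higher and from 3 to 5 lower. Without the replicate block Col6a1 (adjusted p = 0.225) and Col6a2 (0.0685) lost their calls, and 11 list genes were higher. With the mean of all probe sets of a gene, Lrp1 (2.39) and Ctso (-1.73) passed. The sign of Serpind1 turned after median centring (0.16) and quantile normalisation (0.0584). With 1 pair left out, Serpinf1 ran from -0.12 (without pair 3) to 0.42 and Lgmn from -0.76 (without pair 2) to 2.04. The difference of blood endothelial markers (0.41) was 0.72 after median centring and 0.0769 with a signal of 16 added, and that of neutrophil markers (2.12) was 1.07 with 16 added. The cause was not tested in any of these. The Serpinb9b fit gave a value in 9 alternatives only, since it lies near the filter. Signal over background limits the 29 untested serpins.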
